A study of Micropterus salmoides with 6 samples.

Results

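Phospholipases are the enzymes that cut phospholipids, the main lipids of cell membranes and of lipoprotein surfaces. Phospholipases A and B release fatty acids from the glycerol backbone, phospholipase C removes the phosphorylated head group, and phospholipase D cuts on the other side of the phosphate and frees the head group alone. Dietary phospholipid is digested by such enzymes in the gut, and enzymes of the same classes inside cells remodel membranes and make signals such as arachidonic acid, inositol trisphosphate, diacylglycerol and phosphatidic acid. The genes described here were chosen by symbol, from the names of phospholipases A, B, C and D and of their relatives without known phospholipase activity. The glycerophosphodiesterases were also taken, some of which cut the water-soluble products left when both fatty acids have been removed. The deposited table lists 27166 genes, of which 43 carried such a symbol, and 40 of these had 10 or more counts in at least 3 libraries. They were 13 of 14 class A genes, the phospholipase A2 activating protein gene plaa, 3 class B genes, 10 of 12 class C genes, 5 class D genes and 8 glycerophosphodiesterase genes. In all, 13325 genes of the table carry a LOC number in place of a descriptive symbol, so that further phospholipase genes may stand outside this set.

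RNA was sequenced from whole bodies of largemouth bass larvae (Micropterus salmoides, a farmed freshwater fish) after a feeding trial of 12 days. The SP_L larvae had been fed a diet with 0% added phospholipid and were picked for visible skeletal deformity. The SP_H larvae had been fed a diet with 8% phospholipid and were picked for normal shape. Each group had 3 libraries, each a pool of 30 larvae of a tank, so diet and deformity cannot be told apart, and pools do not show how larvae differ among themselves.

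The libraries held between 14958887 and 16922264 counts, and 20627 genes were tested. TMM scaling factors, which correct for a few genes taking a large share of the counts, were between 0.939 and 0.986 in SP_L and between 1.03 and 1.06 in SP_H. The 20 most abundant genes took between 20.7% and 23.2% of the counts in SP_L and between 17.6% and 19.5% in SP_H. Summed levels of 19 skeletal muscle markers were between 118700 and 138000 CPM in SP_L and between 95080 and 106000 CPM in SP_H. Of these markers 15 were higher and 4 lower in SP_L, with a median log2 fold change of 0.19. The sums of 23 tested photoreceptor markers were between 1214 and 1536 CPM in SP_L and between 1665 and 2073 CPM in SP_H. Among the photoreceptor markers 1 was higher and 22 lower in SP_L, with a median of -0.37. Their part in the results below was not tested. Markers of gut, liver, muscle, nerve, retina and leukocytes were all detected, as a whole body should show. Fewer cells of a type and less RNA per cell cannot be told apart in such samples. SP_H replicate 3 stood apart in gut and liver markers, and several results that draw on it are also given without it. Levels between libraries are given as CPM, read counts scaled to the library size with TMM, and levels between genes as the authors' FPKM, which also divides by gene length. Every log2 fold change sets SP_L over SP_H and is followed by its standard error from edgeR.

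The comparison asks whether the enzymes that break down phospholipids are expressed differently when no phospholipid is added to the diet and the larvae are deformed. No phospholipase gene passed the test. The quasi-likelihood test of edgeR, adjusted by Benjamini-Hochberg over all genes, called 0 of the 40 members at 0.05, against 0.0679% of all genes tested. DESeq2 also called 0 members, against 2.18% of all genes. At shares this low a set of 40 genes may hold no call, so the lack of calls alone says little about the members. At an unadjusted p under 0.05, edgeR counted 2 members, pla2g3 with the higher level in SP_L and lypla2 with the lower, which is 5.0% of the members against 12.7% of all genes (6.90% higher and 5.84% lower). DESeq2 counted 1, pla2g3, at an unadjusted p under 0.05, against 10.2% of all genes. The lowest adjusted p of any member was that of pla2g3 (adjusted p = 0.118 by edgeR and 0.0557 by DESeq2). Log2 fold changes were positive in 26 members and negative in 14, or 35% negative, against 49.5% negative among all genes. Their median was 0.05, against 0.00 for all genes. With library size alone as the scaling, all genes shifted to a median of -0.13, the members' median was -0.08, and relative to all genes it stayed at 0.05.

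The data bound these differences closely for most members. The log2 fold change was smaller than 0.2 in size in 30 of the 40 members and smaller than its own standard error in 25. The 95% interval lay within a fold of 1.5 in either direction for 30 members and within a fold of 2 for 34. The other 6 were pla2g3, pla2g12b, plb1, pld5, pld6 and gdpd3a. Libraries of a group differed by a median SD of 0.163 on the log2 CPM scale over the members, against 0.182 over all genes tested. The smallest spread was that of plcg1 at 0.036, and the largest by far was that of the class B gene plb1 at 1.04.

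**Figure D1:**
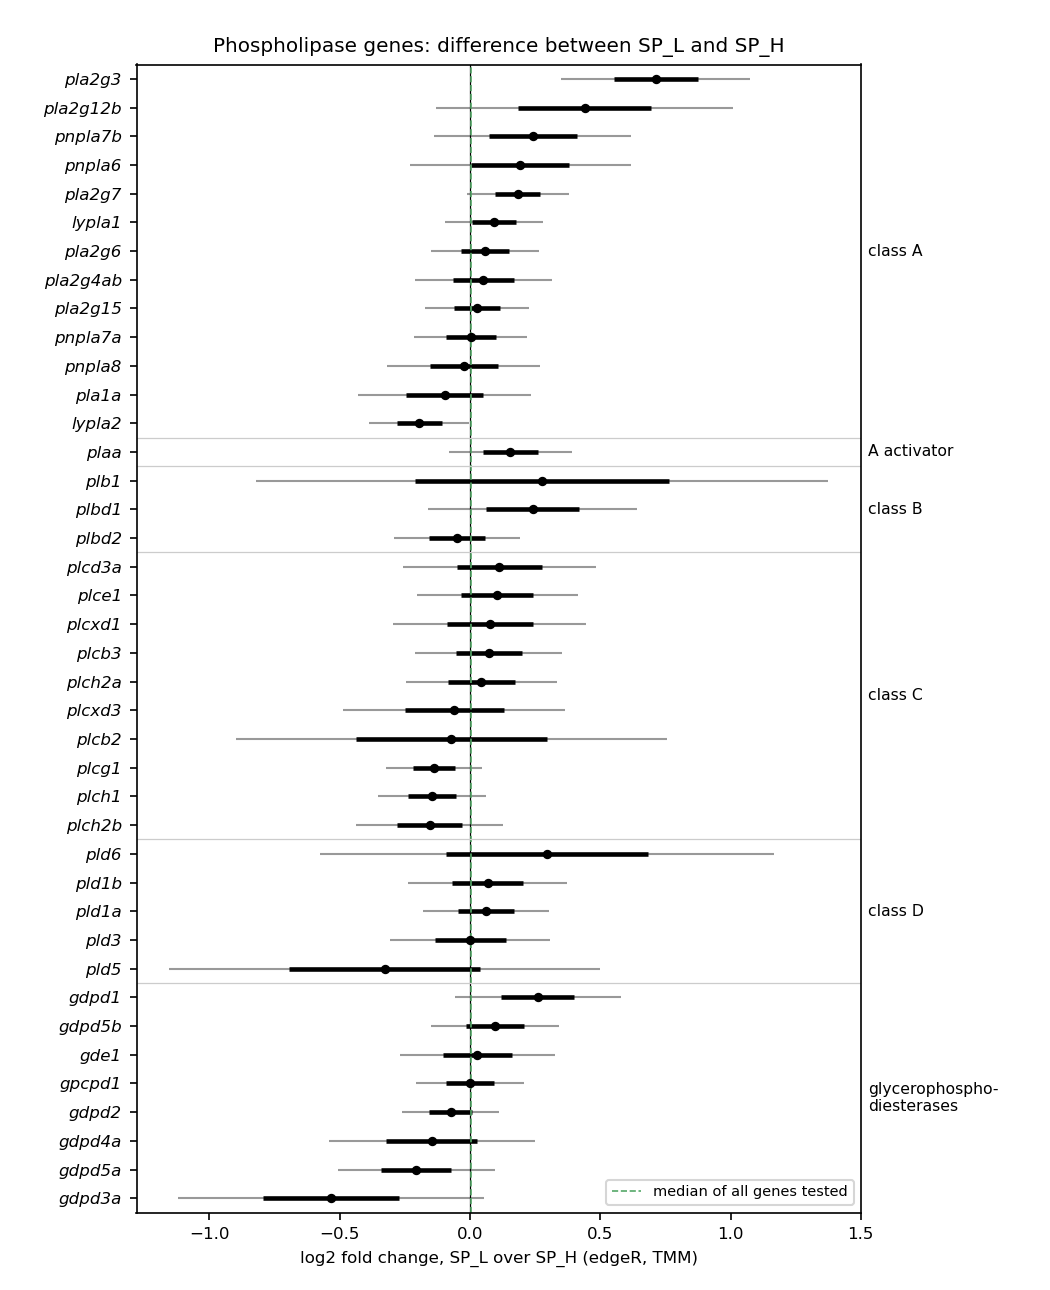
Log2 fold change of SP_L over SP_H for each of the 40 members, by class. Points are edgeR values, thick bars are standard errors, thin lines are 95% intervals, and the dashed line is the median of all genes tested. Intervals of 38 members include 0, and those of pla2g3 and lypla2, chosen from among 40 without adjustment, do not.

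On the FPKM scale the members spanned from 0.444 for plcb2 to 52.4 for gpcpd1, as means over the 6 libraries. The glycerophosphocholine phosphodiesterase gene gpcpd1, whose enzyme splits glycerophosphocholine into choline and glycerol phosphate, stood above every other member, with 44.8, 49.5 and 56.0 FPKM in SP_L and 54.99, 51.3 and 57.9 FPKM in SP_H. It took between 15.7% and 17.8% of the members' summed FPKM in SP_L and between 16.5% and 18.5% in SP_H. The next members were lypla1 (mean 25.4 FPKM), lypla2 (23.2) and pld1a (21.7). The range of lypla2 over libraries overlapped those of lypla1 and pld1a, which did not overlap each other. Below them without overlap came pla2g7 (16.4) and gdpd2 (15.5). Below these, each member's range overlapped that of its neighbour in the order, from plaa (10.9 FPKM) to plcb2. The highest class C gene, plcd3a, averaged 6.59 FPKM and ranked at position 13.

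**Figure D2:**
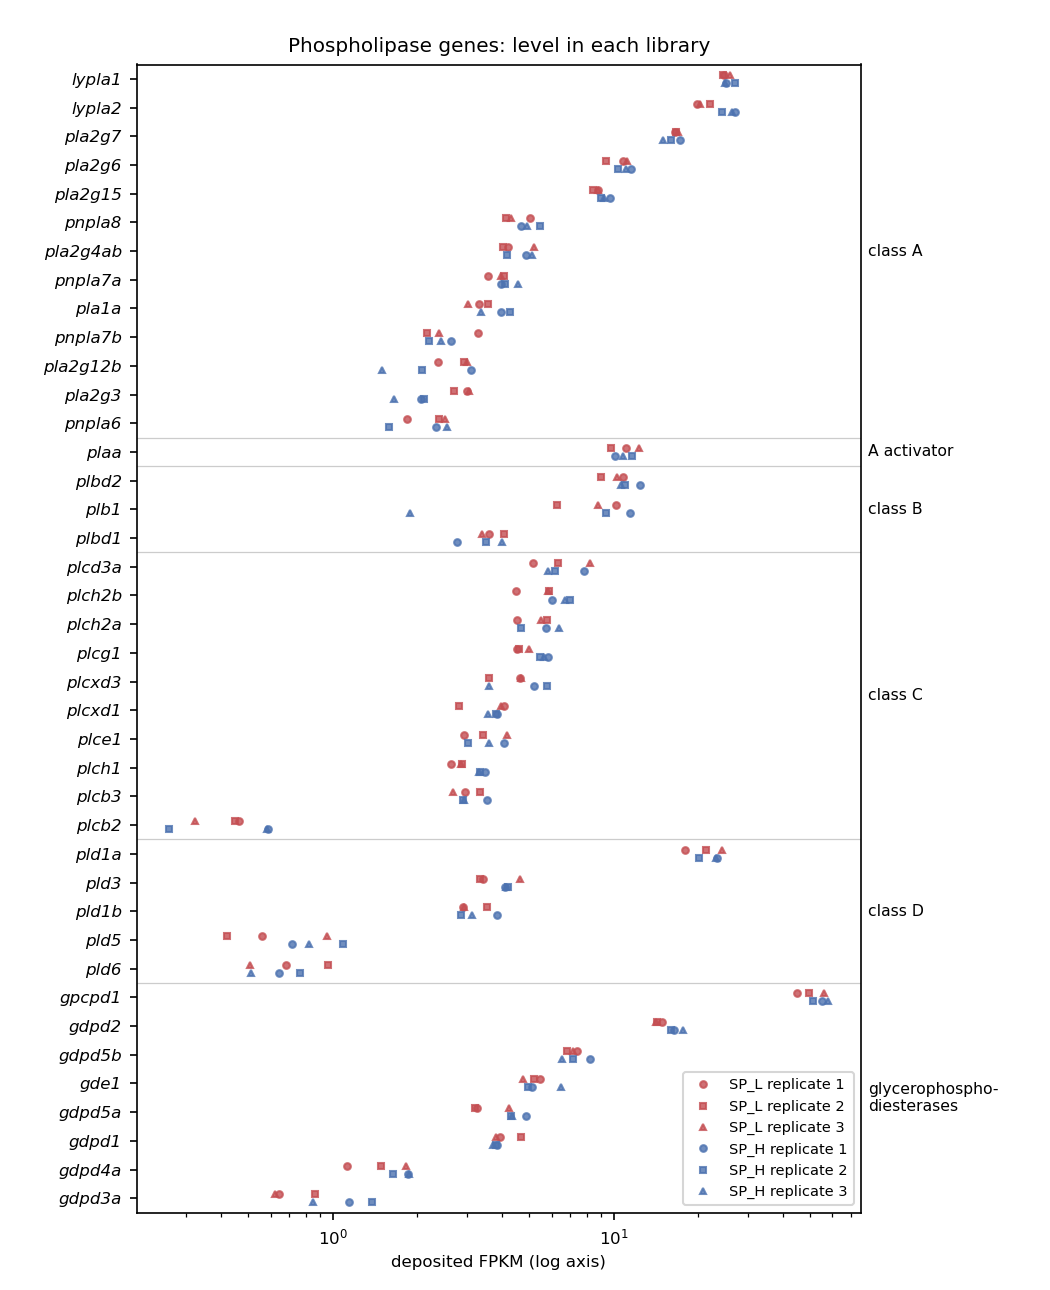
Deposited FPKM of each member in each library, on a log axis, by class and mean level. Red symbols are the 3 SP_L libraries and blue symbols the 3 SP_H libraries. The low point of plb1 is SP_H replicate 3, at 1.88 FPKM against 6.25 to 11.4 FPKM in the other 5 libraries.

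Class A held the member with the largest fold change and both genes that reached an unadjusted p under 0.05. Of its 13 tested genes 10 had positive values, with a median log2 fold change of 0.06, or 0.05 relative to all genes. The median was -0.07 with library size alone, still 0.05 above all genes, and without SP_L replicate 2 it was 0.11. The group III secreted phospholipase A2 gene pla2g3, related to the bee venom enzyme, had 10.3, 9.22 and 9.92 CPM in SP_L, against 6.31, 6.59 and 5.005 CPM in SP_H. Every SP_L library lay above every SP_H library. The log2 fold change was 0.71 ± 0.16 (95% interval 0.35 to 1.08; adjusted p = 0.118, edgeR). Among all genes, 9.64% had groups apart in this direction. The value was positive in each of the 17 alternative fits, between 0.42 and 0.79, and was called in 0 of them. It was 0.60 without SP_H replicate 3. At 81 to 151 counts per library, pla2g3 is among the less abundant members.

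The group XIIB gene pla2g12b, whose product lacks enzyme activity and in mouse and zebrafish is needed to load lipid onto lipoproteins, had 6.91, 8.53 and 8.34 CPM in SP_L and 8.12, 5.53 and 3.89 CPM in SP_H. The groups overlapped through SP_H replicate 1, and SP_H replicate 3 was lowest. The log2 fold change of 0.44 ± 0.25 (adjusted p = 0.519, edgeR) was 0.22 without SP_H replicate 3 and 0.75 without SP_H replicate 1. The plasma-type gene pla2g7, which encodes the enzyme that inactivates platelet-activating factor, had 48.1, 48.4 and 47.2 CPM in SP_L, against 44.8, 42.8 and 38.9 CPM in SP_H. The groups did not overlap in CPM, but they did in FPKM, and the log2 fold change was 0.18 ± 0.09 (adjusted p = 0.416, edgeR). It was 0.13 without SP_H replicate 3.

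The acyl-protein thioesterase genes lypla1 and lypla2, first described as lysophospholipases, were the most abundant of class A. For lypla2 the CPM was 66.6, 73.9 and 65.1 in SP_L, against 81.3, 75.1 and 78.8 in SP_H. The SP_L libraries were all below the SP_H libraries, as in 9.46% of all genes. The log2 fold change was -0.19 ± 0.08 (adjusted p = 0.387, edgeR), and it was negative in each alternative fit, between -0.33 and -0.16. For lypla1 the CPM was 44.8, 44.2 and 44.7 in SP_L and 40.7, 44.6 and 40.0 in SP_H. These groups overlapped, with a log2 fold change of 0.09 ± 0.08 (adjusted p = 0.700, edgeR). With library size alone it was -0.04, and 0.09 relative to all genes.

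The remaining class A genes had log2 fold changes between -0.10 and 0.24. None of them had groups apart in CPM, but they are what is left once the genes with the lowest p are set aside. Of all 13 tested class A genes 2 were higher and 1 lower without overlap, or 23.1%, against 19.1% of all genes. The remaining genes include the cytosolic, arachidonate-releasing gene pla2g4ab (0.05 ± 0.12), the calcium-independent genes pla2g6 (0.06 ± 0.09) and pnpla8 (-0.02 ± 0.13), and the lysosomal gene pla2g15 (0.03 ± 0.09). They also include the phosphatidylserine-specific gene pla1a (-0.10 ± 0.15) and the lysophospholipase genes pnpla6 (0.19 ± 0.19), pnpla7a (0.00 ± 0.10) and pnpla7b (0.24 ± 0.17), whose enzymes make glycerophosphocholine. For pnpla7b SP_L replicate 1 stood above the other 5 libraries, at 24.7 CPM against 15.1 to 17.6 CPM. The activator gene plaa, which encodes a ubiquitin-binding protein rather than an enzyme, had 36.4, 32.1 and 38.6 CPM in SP_L and 29.7, 34.9 and 31.5 CPM in SP_H. Its groups overlapped, with a log2 fold change of 0.16 ± 0.11 (adjusted p = 0.593, edgeR).

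The pancreatic type gene pla2g1b, a digestive phospholipase A2 in mammals, was not tested, with 2, 0 and 0 counts in SP_L and 4, 1 and 0 counts in SP_H. The other exocrine pancreas markers found by symbol were low as well. They include no trypsin, chymotrypsin or pancreatic lipase gene, which may stand under LOC numbers. They therefore do not show how abundant pancreas transcripts are. Of the 8 that the table lists, 0 were without counts in all libraries and 4 were tested, with summed levels between 7.16 and 9.16 CPM in SP_L and between 9.35 and 10.3 CPM in SP_H. The sums did not overlap, and the lowest adjusted p of the 4 was 0.634 by edgeR. At this depth a difference in pla2g1b could not be detected.

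**Figure D3:**
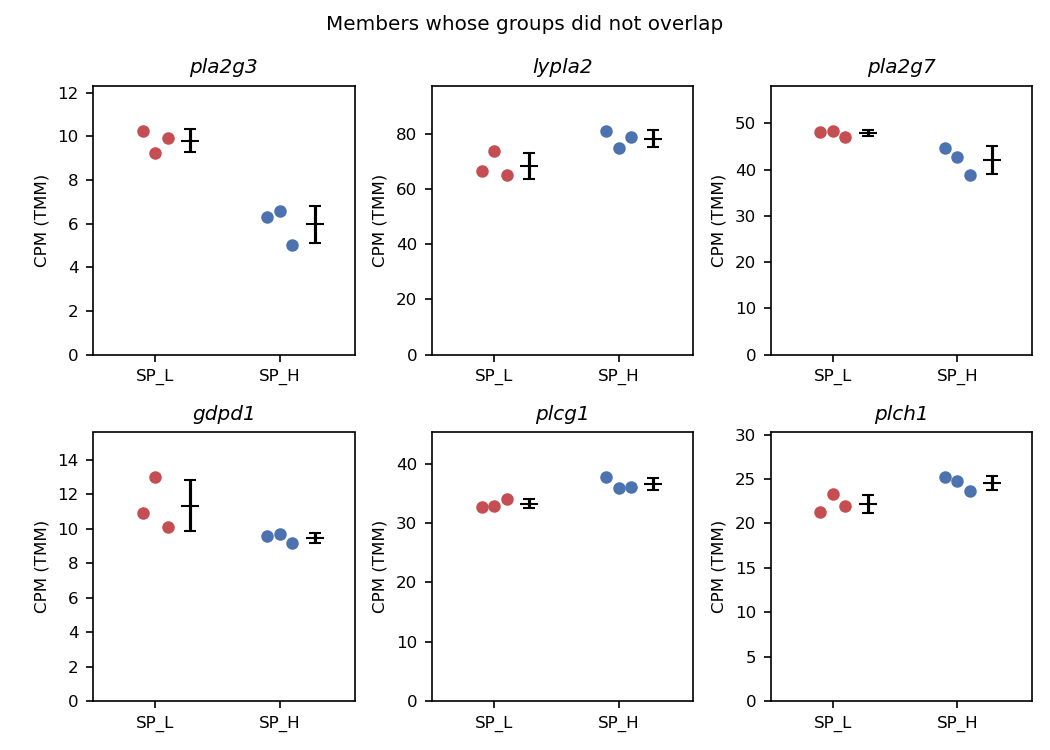
CPM in each library for the 6 members whose SP_L and SP_H libraries did not overlap. Coloured points are libraries, black marks are means with SD (n = 3 each). Pla2g3 averaged 9.80 ± 0.53 CPM in SP_L and 5.97 ± 0.85 CPM in SP_H, the widest separation of the 6 in fold.

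Groups that did not overlap in CPM were found in 6 of the 40 members, 3 higher and 3 lower in SP_L, or 15%, against 19.1% of all genes. The higher members were pla2g3, pla2g7 and gdpd1, and the lower members lypla2, plcg1 and plch1. In FPKM, which has no TMM correction, 1 member was higher (pla2g3) and 7 were lower in SP_L. The backgrounds there were 3.76% of all genes higher and 21.4% lower. The 7 were lypla2, pla2g15, plcg1, plch1, plch2b, gdpd2 and gdpd5a, so that pla2g3, lypla2, plcg1 and plch1 were apart on both scales. Summed over the 40 members, FPKM was 286, 291 and 314 in SP_L and 330, 310 and 313 in SP_H, and these sums overlapped.

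Class B has 3 genes, of which plb1 varied more between libraries than any other member. The gene plb1, which in mammals encodes a brush border enzyme of the intestine that digests dietary phospholipid, had 586, 408 and 525 counts in SP_L and 696, 598 and 111 counts in SP_H. In CPM this was 41.8, 25.6 and 34.5 in SP_L and 41.8, 35.2 and 6.86 in SP_H. SP_H replicate 3 was far below the other 5 libraries, which overlapped. The log2 fold change was 0.28 ± 0.49 (adjusted p = 0.866, edgeR). Without SP_H replicate 3 it was -0.18 ± 0.19 (adjusted p = 0.788, edgeR), without SP_H replicate 1 it was 0.69, and without SP_L replicate 1 it was 0.10.

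Most enterocyte markers were low in the same library. All 8 in the table were tested, 7 were lowest in SP_H replicate 3 and the alkaline phosphatase gene alpi.1 was highest there, at 10.75 CPM against 8.695 to 10.47 CPM in the other libraries. The summed level of the 8 was 81.2, 76.1 and 107.5 CPM in SP_L and 87.5, 90.2 and 41.0 CPM in SP_H. Among them the peptide transporter gene slc15a1a had 17.2, 13.4 and 26.5 CPM in SP_L and 22.5, 19.1 and 5.75 CPM in SP_H. The 12 hepatocyte markers summed to 3571, 3926 and 3582 CPM in SP_L and to 3937, 3597 and 2403 CPM in SP_H. The part of gut and liver content in the levels of plb1 and pla2g12b was not tested.

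**Figure D4:**
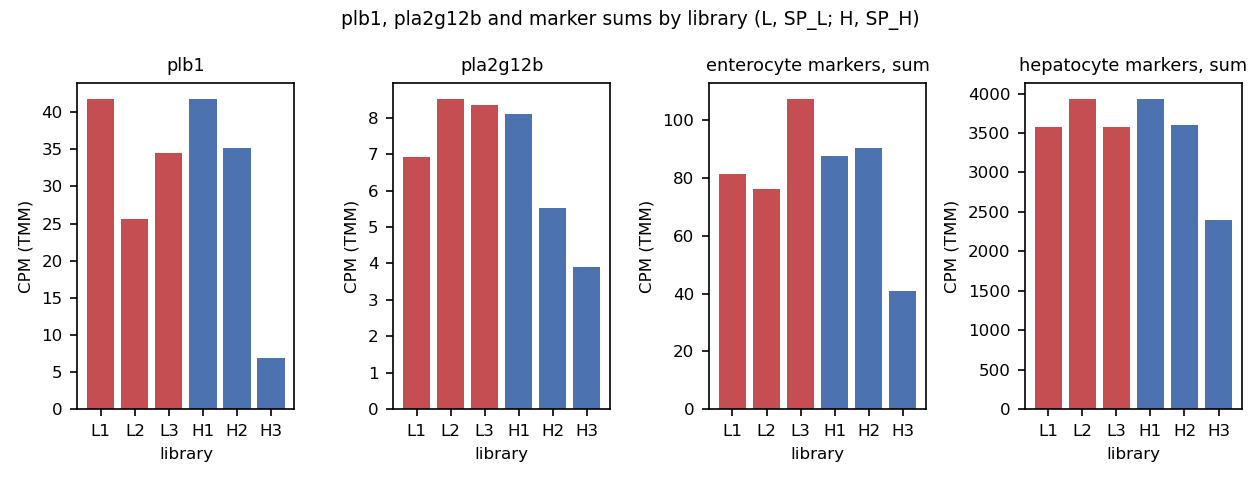
CPM of plb1 and pla2g12b and summed CPM of 8 enterocyte and 12 hepatocyte markers in each library. Red bars are SP_L replicates 1 to 3 and blue bars SP_H replicates 1 to 3. SP_H replicate 3 is lowest in all 4 panels, at 6.86 CPM for plb1 and 41.0 CPM for the enterocyte sum.

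The other class B genes carry a phospholipase B domain and are known from lysosomes or leukocyte granules in mammals. For plbd1 the CPM was 8.55, 9.60 and 7.69 in SP_L and 5.89, 7.59 and 8.403 in SP_H, with a log2 fold change of 0.24 ± 0.18 (adjusted p = 0.625, edgeR), between 0.11 without SP_H replicate 1 and 0.35 without SP_H replicate 3. For plbd2 the CPM was 29.3, 24.4 and 26.7 in SP_L and 30.2, 27.4 and 25.6 in SP_H, with a log2 fold change of -0.05 ± 0.11 (adjusted p = 0.893, edgeR). Both had overlapping groups. Leukocyte markers (10 tested) summed to between 185.5 and 215.8 CPM in SP_L and between 184.6 and 225.1 CPM in SP_H.

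Class C had fold changes on both sides of 0. It holds the phosphoinositide phospholipases that turn receptor signals into inositol trisphosphate and diacylglycerol. Also counted in it were plcxd1 and plcxd3, which have only an X domain. Of 10 tested genes 5 were positive and 5 negative, with a median log2 fold change of -0.01, which stayed at -0.01 relative to all genes with library size alone. The values ran from -0.16 to 0.11, the narrowest range of the classes with more than 1 gene. The receptor tyrosine kinase effector plcg1 had 32.7, 32.9 and 34.2 CPM in SP_L, against 37.8, 36.0 and 36.1 CPM in SP_H. The groups were apart, by a log2 fold change of -0.14 ± 0.08 (adjusted p = 0.534, edgeR).

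The eta genes plch1, plch2a and plch2b encode calcium-sensitive enzymes best known from neurons in mammals. For plch1 the CPM was 21.3, 23.3 and 22.01 in SP_L, against 25.2, 24.8 and 23.7 in SP_H, apart by a log2 fold change of -0.14 ± 0.09 (adjusted p = 0.563, edgeR). For plch2b the CPM was 19.0, 24.9 and 23.5 in SP_L and 22.8, 27.2 and 25.2 in SP_H, which overlap, with -0.16 ± 0.13 (adjusted p = 0.658, edgeR), or -0.05 without SP_L replicate 1. For plch2a the log2 fold change was 0.04 ± 0.13. Of 21 neuron markers 18 had negative values, with a median of -0.14, and their summed level was between 1768 and 1934 CPM in SP_L and between 1852 and 2208 CPM in SP_H. The part of nerve tissue in the eta genes was not tested.

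Among the other class C genes, the Ras-linked gene plce1 had 36.0, 41.9 and 49.0 CPM in SP_L and 44.8, 34.1 and 39.2 CPM in SP_H, a log2 fold change of 0.10 ± 0.14 (adjusted p = 0.802, edgeR). The delta gene plcd3a had 25.1, 30.7 and 38.1 CPM in SP_L and 34.02, 27.6 and 25.3 CPM in SP_H, a log2 fold change of 0.11 ± 0.16 (adjusted p = 0.827, edgeR). In both genes the libraries of each group spread across those of the other, and without SP_L replicate 3 both values were negative (-0.02 for plce1 and -0.06 for plcd3a). Relative to all genes, the values with library size alone were 0.10 for plce1 and 0.12 for plcd3a, close to those above. The beta genes, effectors of G-protein coupled receptors, had values of 0.07 ± 0.13 for plcb3 and -0.07 ± 0.37 for plcb2, the member with the lowest level. The genes with only an X domain had values of 0.08 ± 0.16 for plcxd1 and -0.06 ± 0.19 for plcxd3. Plcl1, a relative without catalytic activity in mammals, had 1, 2 and 1 counts in SP_L and 4, 3 and 9 counts in SP_H, and plcxd2 had 3, 1 and 5 counts in SP_L and 2, 6 and 6 counts in SP_H. Neither was tested.

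None of the 5 class D genes had groups apart in CPM. Among all genes 19.1% had groups apart, so with 5 genes this says little about the class. Pld1a and pld1b are the 2 teleost copies of PLD1, which makes phosphatidic acid and choline from phosphatidylcholine. Pld1a had 104.5, 123.2 and 134.2 CPM in SP_L and 120.6, 107.1 and 119.1 CPM in SP_H, a log2 fold change of 0.06 ± 0.11 (adjusted p = 0.861, edgeR). Pld1b had 23.8, 29.0 and 22.99 CPM in SP_L and 28.1, 21.5 and 22.8 CPM in SP_H, a log2 fold change of 0.07 ± 0.14 (adjusted p = 0.884, edgeR). With library size alone they were -0.07 for pld1a and -0.06 for pld1b, and both stayed at 0.06 relative to all genes. In FPKM, pld1a was between 6.0 and 8.26 times as abundant as pld1b in SP_L and between 6.06 and 7.39 times in SP_H.

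The remaining class D genes encode proteins that are not classical phospholipases. The lysosomal nuclease gene pld3 had 13.6, 13.2 and 17.5 CPM in SP_L and 14.6, 15.2 and 14.5 CPM in SP_H, with a log2 fold change of 0.00 ± 0.14 (adjusted p = 0.998, edgeR). Pld5, with no known enzyme activity, had 1.43, 1.07 and 2.30 CPM in SP_L and 1.62, 2.53 and 1.85 CPM in SP_H, a log2 fold change of -0.33 ± 0.37 (adjusted p = 0.765, edgeR). Pld6, a mitochondrial protein of the germline piRNA pathway, had 1.21, 1.69 and 0.854 CPM in SP_L and 1.02, 1.24 and 0.803 CPM in SP_H, a log2 fold change of 0.30 ± 0.39 (adjusted p = 0.801, edgeR). Leaving out 1 library moved both, to between -0.69 and -0.10 for pld5 and between 0.01 and 0.51 for pld6, each time with the extremes without SP_L replicate 3 or SP_L replicate 2. At these low levels of both, the 95% intervals reach from -1.15 to 0.50 for pld5 and from -0.58 to 1.17 for pld6, so a fall of 2-fold lies within the interval of pld5 and a rise of 2-fold within that of pld6.

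The 8 glycerophosphodiesterase genes had 4 positive and 4 negative values, with a median log2 fold change of -0.04, unchanged relative to all genes with library size alone. Gpcpd1 had 198.8, 218.6 and 236.7 CPM in SP_L and 218.1, 208.0 and 227.6 CPM in SP_H. The groups overlapped fully, with a log2 fold change of 0.00 ± 0.09 and a 95% interval from -0.21 to 0.21 (adjusted p = 0.997, edgeR). Gdpd1 had 10.9, 12.98 and 10.1 CPM in SP_L, against 9.56, 9.71 and 9.15 CPM in SP_H. These groups were apart in CPM, as in 9.64% of all genes in this direction, and overlapped in FPKM. The log2 fold change was 0.26 ± 0.14 (adjusted p = 0.491, edgeR), and it was 0.15 without SP_L replicate 2. In mammals the gdpd1 enzyme acts as a lysophospholipase D.

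Gdpd3a, a relative of gdpd1, had 2.99, 4.01 and 2.76 CPM in SP_L and 4.75, 5.88 and 3.52 CPM in SP_H. The groups overlapped through SP_L replicate 2 and SP_H replicate 3, and the log2 fold change of -0.53 ± 0.26 was the most negative of the members (adjusted p = 0.435, edgeR). Gdpd5a had 11.9, 11.7 and 14.7 CPM in SP_L and 15.8, 14.4 and 14.0 CPM in SP_H, a log2 fold change of -0.21 ± 0.13 (adjusted p = 0.571, edgeR). The second copy, gdpd5b, had a value of 0.10 ± 0.11. In FPKM, gdpd5a was between 0.442 and 0.592 of gdpd5b in SP_L and between 0.589 and 0.667 in SP_H, which overlap. Gdpd2, an enzyme of glycerophosphoinositol breakdown in mammals, had 48.7, 46.6 and 44.1 CPM in SP_L and 48.0, 47.8 and 51.0 CPM in SP_H, a log2 fold change of -0.07 ± 0.08 (adjusted p = 0.766, edgeR). The values were 0.03 ± 0.13 for gde1 and -0.15 ± 0.17 for gdpd4a.

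Genes that supply the substrates of phospholipases or use their products were also without calls. In 4 lists (eicosanoid enzymes, inositol trisphosphate and diacylglycerol signalling, PIP2 supply, and other lipid hydrolases) edgeR called 0 genes in either direction, as did DESeq2. Of all genes tested edgeR called 0.0679% and DESeq2 2.18%, so the lack of calls in lists this short says little about them. In each list, the 2 genes described with their adjusted p were chosen as those with the lowest unadjusted edgeR p. The eicosanoid list holds 13 genes, among them hpgd (0.14), whose enzyme breaks prostaglandins down rather than making them. Of the 13, 12 had positive values, against 50.5% of all genes, with a median of 0.20. An unadjusted p under 0.05 was reached by 1, against 12.7% of all genes. SP_H replicate 3 had the lowest summed level of the list, 317 CPM against 384, 387 and 386 CPM in SP_L and 387 and 405 CPM in the other SP_H libraries. The most abundant gene of that sum, ptgdsb.1, had 122.3 CPM there, against 143.8 to 185.5 CPM in the other libraries. Its log2 fold change of -0.07 was the only negative one. Of the 13 genes, 5 were lowest in SP_H replicate 3. Without SP_H replicate 3, 10 of the 13 were positive, with a median of 0.15, and without SP_L replicate 1 also 10, with a median of 0.12. Leaving out any other library gave 11 to 13 positive values, with medians of 0.16 to 0.26. Under scaling by library size alone 9 were positive. All genes had a median of -0.13 there, and relative to all genes the median of the list stayed at 0.19. The lipoxygenase gene alox12 had 5.56, 3.199 and 3.61 CPM in SP_L, against 2.53, 2.29 and 3.09 CPM in SP_H, a log2 fold change of 0.64 ± 0.28 (adjusted p = 0.377, edgeR). Alox5a had 4.63, 4.52 and 6.96 CPM in SP_L, against 4.33, 4.0 and 3.40 CPM in SP_H, a log2 fold change of 0.46 ± 0.23 (adjusted p = 0.457, edgeR). The groups of both genes were apart in CPM, as in 9.64% of all genes in this direction, and overlapped in FPKM. Leaving out 1 library gave values down to 0.36 for alox12, without SP_L replicate 1, and 0.22 for alox5a, without SP_L replicate 3. The cyclooxygenase genes had values of 0.02 ± 0.12 for ptgs1 and 0.10 ± 0.30 for ptgs2b.

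Of 24 genes listed under inositol trisphosphate and diacylglycerol signalling, 13 were positive and 11 negative, with a median of 0.01. The lowest p-values were those of the phosphoinositide phosphatase gene inpp5kb (-0.42 ± 0.16, adjusted p = 0.293, edgeR) and of the protein kinase C gene prkcq (0.28 ± 0.12, adjusted p = 0.364, edgeR). Only these 2 of the 24 reached an unadjusted p under 0.05, against 12.7% of all genes. The groups of inpp5kb overlapped in CPM but not in FPKM, where 21.4% of all genes were lower without overlap. Its second copy, inpp5ka, had a value of 0.13 ± 0.11. Of 15 genes that make or carry the substrate of phospholipase C, 6 were positive and 9 negative, with a median of -0.03, which was 0.00 without SP_H replicate 3 or without SP_L replicate 3. The phosphatidylinositol transfer gene pitpnab had 54.0, 54.7 and 57.7 CPM in SP_L, against 68.1, 80.8 and 64.1 CPM in SP_H. These were apart, as in 9.46% of all genes in this direction, by a log2 fold change of -0.36 ± 0.10 (adjusted p = 0.183, edgeR). The PIP2-making kinase gene pip5k1ca had a value of -0.32 ± 0.09 (adjusted p = 0.190, edgeR). Only pitpnab and pip5k1ca, 2 of the 15 genes, reached an unadjusted p under 0.05, against 12.7% of all genes.

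Of 12 other tested hydrolases of phospholipids and their products, 7 were positive and 5 negative, with a median of 0.04, or 0.01 without SP_H replicate 3, in which 7 of the 12 were lowest. The endothelial lipase gene lipg, whose enzyme takes fatty acids from lipoprotein phospholipids, had 31.8, 35.4 and 32.9 CPM in SP_L, against 26.6, 27.3 and 24.7 CPM in SP_H. The groups were apart on both scales, by a log2 fold change of 0.35 ± 0.09 (adjusted p = 0.160, edgeR). Among all genes 9.64% were apart in this direction in CPM and 3.76% in FPKM. The autotaxin gene enpp2, which encodes the secreted lysophospholipase D that makes lysophosphatidic acid, had 12.4, 11.4 and 16.9 CPM in SP_L, against 18.8, 17.1 and 18.7 CPM in SP_H. These were apart as well, as in 9.46% of all genes in this direction, by a log2 fold change of -0.42 ± 0.15 (adjusted p = 0.293, edgeR). Only lipg and enpp2, 2 of the 12 genes, reached an unadjusted p under 0.05, against 12.7% of all genes.

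**Figure D5:**
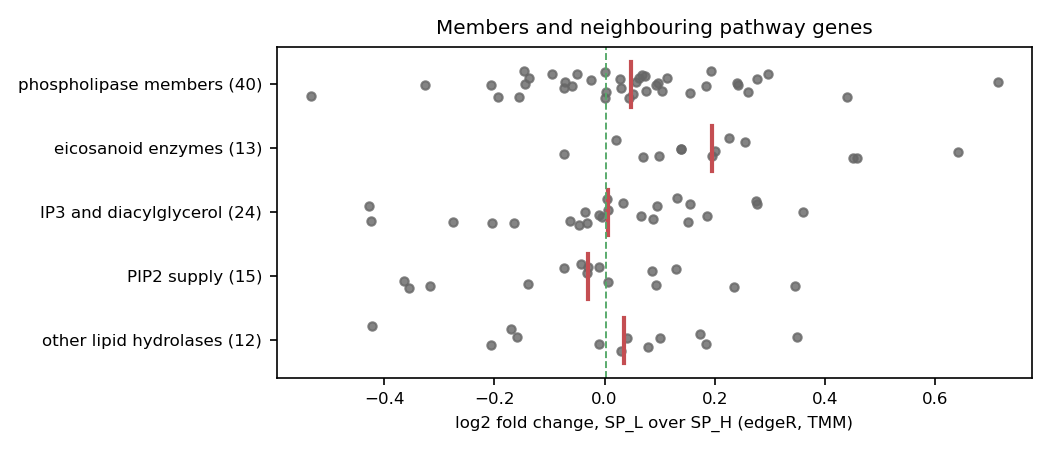
Log2 fold change of SP_L over SP_H for the 40 members and for the tested genes of 4 neighbouring lists, with the number of genes in brackets. Points are genes, red bars are medians, and the dashed line is the median of all genes tested. The medians are 0.05 for the members, 0.20 for eicosanoid enzymes, 0.01 for inositol trisphosphate and diacylglycerol signalling, -0.03 for PIP2 supply and 0.04 for other lipid hydrolases.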

How the data were processed

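The deposited counts are whole numbers per gene, and the deposited FPKM values equal them divided by a gene length and the library total (24734 genes checked, within 1 part in 10000). The submitters' processing notes list HTSeq, HISAT2 and Bowtie2, StringTie and Cufflinks, Trimmomatic, SAMtools and DESeq, without saying what each did or its version. The notes name a mouse build although the symbols are those of largemouth bass, so no coordinates are given. All 43 symbols matched the RefSeq table of assembly ASM1485139v1.

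Counts were analysed with edgeR 4.0.16 in R 4.3.3 (filterByExpr with minimum count 10 and minimum total 15, TMM, quasi-likelihood F test, Benjamini-Hochberg over all 20627 genes at 0.05). Alternatives used DESeq2 1.42.0 and limma 3.58.1. The edgeR, DESeq2 and limma-voom fits were tested on simulated data with known fold changes, and the other steps were not. There edgeR called 33.3% of changes of 1.5-fold, 68% of 2-fold and 92.7% of 3-fold. DESeq2 called 42.7%, 76.7% and 95.3%. The changed genes were drawn from those at 2 CPM or more, which leaves out pld5 and pld6. Averaged over the drawn genes, most changes of 1.5-fold were thus missed. The rate for a given member was not simulated. Intervals at 95% use the edgeR standard error. Members, lists and tests were chosen with earlier results of these data known. Members are given per library if in their class they have one of the 4 lowest p-values or one of the 2 highest FPKM means. Pnpla7b and other members are named to account for all. The genes ptgs1, ptgs2b, ptgdsb.1, inpp5ka, slc15a1a and alpi.1 were named after their values were seen. Reads of duplicated gene copies may be split between them. Averaged over genes, the variance of counts between pools of a group was 11.2 to 14.9 times that of sampling, without TMM scaling. No library thus repeats another, but this mean does not describe each gene. The p-values measure the spread between pools as estimated for each gene.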

Additional observations from a re-analysis of the deposited data

How the results depend on the processing

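Under each of the 17 alternatives 0 members were called, and the lowest adjusted p of any member was between 0.0557 with DESeq2 and 0.291. The count of members at an unadjusted p under 0.05, 2 in the report, was 7 with library size alone as the scaling, 1 with DESeq2, 1 with no filter on low counts, 7 with limma on log2(FPKM + 1), 6 with log2(FPKM + 0.1), 5 with log2(FPKM + 1) and no filter, and 1 to 3 with a library left out. It stayed at 2 with RLE scaling, limma-voom, robust variance estimation and a minimum of 1 CPM. Over all genes the share under 0.05 was 12.7% in the report, 18.4% with library size alone, 10.2% with DESeq2 and 11.2% with no filter on low counts. With limma it was 17.6% on log2(FPKM + 1), 17.5% on log2(FPKM + 0.1) and 15.2% on log2(FPKM + 1) with no filter. With a library left out it was 9.79% to 13.2%. The counts of 5 to 7 members were thus in fits with a higher share of all genes. Calls over all genes were 14 in the report, 449 with DESeq2, 78 with robust variance estimation, 57 with no filter on low counts, 5 with library size alone, 0 with each fit on FPKM, and 0 to 22 with a library left out.

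Fold changes here are log2 values relative to the median of all genes, a scale chosen after seeing the data because library size alone and the FPKM fits shift that median to between -0.13 and -0.07. On this scale 392 of 408 pairs of a named member and an alternative kept their sign, and 0 were called. Without subtracting that median, 50 changed sign. With library size alone pld3 was at 0.0022. With log2(FPKM + 1) and no filter pld1a was at -0.0041, and the medians were 0.0003 for class A, -0.0875 for the glycerophosphodiesterases and -0.0032 for all members, against 0.05, -0.04 and 0.05 in the report.

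With a library left out, the median was between 0.0234 and 0.117 for class A, between -0.11 and 0.26 for class B, where the lowest value is that without SP_H replicate 3, and between 0.0081 and 0.0685 for all members. Signs turned in plb1 (-0.19 to 0.68), plbd2 (-0.12 to 0.019), plcd3a (-0.052 to 0.24), plce1 (-0.014 to 0.20), pld1a (-0.021 to 0.15), pld1b (-0.039 to 0.19), pld3 (-0.14 to 0.082) and gpcpd1 (-0.061 to 0.058). A further count used log2 fold changes without subtracting the median of all genes. Leaving out 1 library turned their sign or changed their size by a factor over 1.5 in 19 of the 24 named members. Neither occurred in pla2g3, pla2g7, lypla2, plcg1 and plch1. Small shifts pass such a factor when a log2 value is near 0. For lypla1, at 0.09, the values with a library left out were 0.06 to 0.14. The median of the eicosanoid list relative to all genes was 0.19 in the report. It was 0.116 with log2(FPKM + 1), 0.0904 with no filter as well, and 0.1215 to 0.2684 with a library left out. That of the PIP2 supply list, -0.03 in the report, was -0.0545 to 0.0061. Alternatives for these lists were added after seeing the data. The cause of the shifts was not tested.

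Replicate numbers are shared between the groups, but deviations of same-numbered libraries from their group means correlated at -0.07, -0.09 and -0.10. These values gave no sign that the numbers pair the samples, though a weak shared effect could be missed. With the replicate block 0 members were called and 1 had an unadjusted p under 0.05, against 10.6% of all genes. In that fit 2 genes of all were called. Depth limits pla2g1b, plcl1 and plcxd2, which could not be tested. It also limits pld5 and pld6, whose 95% intervals pass a fold of 2, and plcb2, whose interval of -0.90 to 0.76 stays within it.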
